A study of Mus musculus with 3 samples.

Results

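The mRNA levels of 10 tetraspanin genes, Cd9, Cd37, Cd53, Cd63, Cd81, Cd82, Cd151, Tspan3, Tspan13 and Tspan33, were followed in 3 monocytic populations of mice with EAE (experimental autoimmune encephalomyelitis), a model of multiple sclerosis. They were taken by name from a list, which was drawn up with earlier results of these data known, out of 22238 genes listed in all 3 libraries, in which 31 tetraspanin genes were found. EAE was induced in wild-type (WT) female C57BL/6J mice of 10 to 12 weeks by immunization with myelin oligodendrocyte glycoprotein (MOG) peptide in complete Freund's adjuvant, followed by 250 ng of pertussis toxin. Every group received this treatment, and no library came from mice without EAE. At days 14 to 15, bone marrow (BM) monocytes were sorted from 13 mice of 2 experiments as CD45+ CD11b+ Ly6Chi Ly6G- cells without CD11c. Spinal cord (SC) monocytes were CD45+ CD11b+ Ly6Chi Ly6G- cells that also carried CD64, and SC APCs (monocyte-derived antigen-presenting cells) differed from them in the gate by low or absent Ly6C. Each of these came from 18 mice of 3 experiments. Spinal cords were digested with collagenase and DNase and run on a Percoll gradient. Bone marrow was flushed out and enriched for monocytes with a kit before sorting. This handling cannot be told apart from tissue in comparisons of spinal cord with bone marrow. One label field of the APC library gives the bone marrow as its source, whereas its title and tissue field give the spinal cord, which was used here.

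Cells were pooled, so each population has 1 library and no difference between populations has a replicate check. The libraries held 33280643 (BM monocytes), 27283795 (SC monocytes) and 28209589 (APCs) estimated reads. All intervals are of counting error alone, with copies made by PCR counted as if they were separate molecules. Levels are given as TPM (a share of transcripts, corrected for their length), rescaled to the same sum over the common genes. All 8 monocyte markers on a fixed list (among them Csf1r, Fcgr1 and Ly6c2) exceeded 3 TPM in every library. They summed to 45280 TPM in BM monocytes, 23470 in SC monocytes and 14120 in APCs. Ptprc (CD45), Itgam (CD11b), Fcgr1 (CD64) and Ly6c2 (Ly6C) among them encode proteins of the sorting gates. For these genes it is not an independent check of identity. All 6 APC markers (among them H2-Aa and Itgax) exceeded 3 TPM in both spinal cord libraries. In BM monocytes, which were gated without CD11c (Itgax), 4 did. H2-Aa stood at 8.81 TPM there, against 1917 in SC monocytes and 4520 in APCs.

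Tetraspanins are small proteins that cross the membrane several times and gather integrins, immunoglobulin superfamily proteins, proteases and MHC class II molecules into patches of membrane called tetraspanin-enriched microdomains. Some of them, such as CD63, reside mainly in late endosomes and lysosomes and are sorted into exosomes, while others, such as CD9 and CD81, act mostly at the cell surface. CD37 and CD53 are largely restricted to leukocytes, and in macrophages CD9 and CD81 are known for restraining fusion into multinucleated cells.

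The promoters of 3 genes are printed because Cd9, Cd63 and Cd81 were the members that differed most between BM and SC monocytes and differed in the same direction. The windows run from 250 bases before to 50 bases after a RefSeq start of the gene (GRCm38.p6). They are printed 5′ to 3′ on the strand of the gene, and capitals mark the GC box GGGCGG. The Cd9 window lies at chr6:125494711-125495010 on the minus strand, the Cd63 window at chr10:128909095-128909394 on the plus strand and the Cd81 window at chr7:143052500-143052799 on the plus strand.
Cd9: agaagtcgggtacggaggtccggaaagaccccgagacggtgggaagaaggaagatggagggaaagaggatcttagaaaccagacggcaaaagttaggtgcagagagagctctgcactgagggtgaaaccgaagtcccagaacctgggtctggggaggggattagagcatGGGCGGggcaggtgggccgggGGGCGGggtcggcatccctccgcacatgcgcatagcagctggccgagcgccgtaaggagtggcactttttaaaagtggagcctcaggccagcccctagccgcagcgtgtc
Cd63: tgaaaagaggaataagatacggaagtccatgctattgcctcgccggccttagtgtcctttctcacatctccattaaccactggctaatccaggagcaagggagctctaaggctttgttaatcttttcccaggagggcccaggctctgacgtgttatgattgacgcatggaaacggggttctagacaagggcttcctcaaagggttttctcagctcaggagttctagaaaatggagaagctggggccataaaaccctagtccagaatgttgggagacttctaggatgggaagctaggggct
Cd81: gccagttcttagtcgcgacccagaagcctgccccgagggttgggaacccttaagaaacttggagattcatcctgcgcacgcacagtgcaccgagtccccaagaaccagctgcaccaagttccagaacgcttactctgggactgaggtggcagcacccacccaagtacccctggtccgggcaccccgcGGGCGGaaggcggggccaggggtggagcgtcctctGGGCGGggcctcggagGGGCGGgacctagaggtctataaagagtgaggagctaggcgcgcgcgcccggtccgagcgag
The Cd9 and Cd81 windows had more G, C and CG pairs than the median promoter, and the Cd63 window had fewer. G and C made up 61.3% of the Cd9 window, 65.7% of the Cd81 window and 49.3% of the Cd63 window, against a median of 52.7% over 32851 such windows of the genome (quartiles 45.7% and 61.7%). The windows held 18, 23 and 6 CG pairs respectively, against a median of 7 (quartiles 3 and 20). The printed windows also differed in their motifs. The GC box, searched like every motif on both strands, occurred 2 times in the Cd9 window, 3 times in the Cd81 window and not in the Cd63 window, and at least once in 35.7% of all windows. Among the 10 genes, 7 had a window with it, and the exceptions were Cd53, Cd63 and Tspan3. The core motif of the myeloid factor PU.1, GAGGAA, occurred 2 times in the Cd63 window and in a window of 4 of the 10 genes (Cd37, Cd53, Cd63 and Cd82), against 28.3% of all windows. Thus the Cd63 window had the PU.1 core and lacked the GC box, while the Cd9 and Cd81 windows had the GC box and lacked the PU.1 core. The Cd63 window lies inside its gene (chr10:128900989-128912822), whereas the Cd9 and Cd81 windows span the 5′ end of theirs. The contrast therefore sets an internal start against outer starts. The Tspan3 window (chr9:56161021-56161320) also lies inside its gene (chr9:56131725-56165477). Other internal windows were mixed. Those of Cd37 (chr7:45238790-45239089) and a Cd82 window (chr2:93462453-93462752) had the GC box, while further internal windows of Cd82 and Cd151 lacked it. The Cd53 window lacked it although it spans the 5′ end of its gene. The letters of the TATA box, TATAAA, were found for Cd81 alone among the 10 genes, against 13.6% of all windows. This match began 6 bases after the RefSeq start, not before it. CCAAT was found for 5 genes (Cd53, Cd82, Tspan3, Tspan13 and Tspan33), against 37.4%. The E-box CACGTG was found for Cd37 alone, against 7.15% of all windows. The AP-1 element TGANTCA was found for none of the 10 genes, against 7.81% of all windows. In the windows printed, no match overlapped a match of another motif. A gene can have several windows (14 windows for the 10 genes), so counts of genes and shares of windows are on different bases. A match is a description of letters, not a binding site.

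In BM monocytes, tetraspanin mRNA was mostly that of Cd53, and Cd9, Cd63 and Cd81 were minor. Cd53, a leukocyte tetraspanin that supports adhesion and signaling, stood at 585 TPM (95% Wilson interval of counting 577 to 594). Cd37, its relative on B cells and myeloid cells, followed at 111 TPM and Cd82, a tetraspanin of the plasma membrane and endosomes that organizes integrins, at 44.8 TPM. Tspan13 (23.0 TPM) and Cd9 (20.4 TPM) could not be separated within counting error, nor could Cd151 (15.7 TPM), a partner of laminin-binding integrins, and the widely expressed Tspan3 (14.9 TPM). Cd63 stood at 5.19 TPM, Cd81 at 2.63 TPM and Tspan33, which directs the protease ADAM10, at 0.696 TPM. Cd81 and Tspan33 were thus below 3 TPM, the threshold for an active gene used here. Of the 10 genes, 8 were above it in BM monocytes, 9 in SC monocytes and all 10 in APCs.

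The order changed in the spinal cord. In SC monocytes Cd53 remained first at 817 TPM, but Cd9 came next at 562 TPM and then Cd63 at 126 TPM. Cd82 (75.5 TPM) and Cd37 (71.9 TPM) were not separated within counting error and stood ahead of Cd81 at 53.4 TPM. In APCs Cd9 was first at 779 TPM (767 to 792), above Cd53 at 662 TPM (653 to 671). Cd63 at 275 TPM and Cd81 at 159 TPM followed, above Cd82 (97.1 TPM) and Cd37 (78.4 TPM). The lower end of the order was alike in both spinal cord libraries, with Tspan13 above Tspan3 and Cd151, which were not separated, and Tspan33 last. Cd9 ranked 5525th among all 22238 genes by TPM in BM monocytes, 312th in SC monocytes and 208th in APCs. The ranks of Cd53 were 264, 217 and 236.

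**Figure D1:**
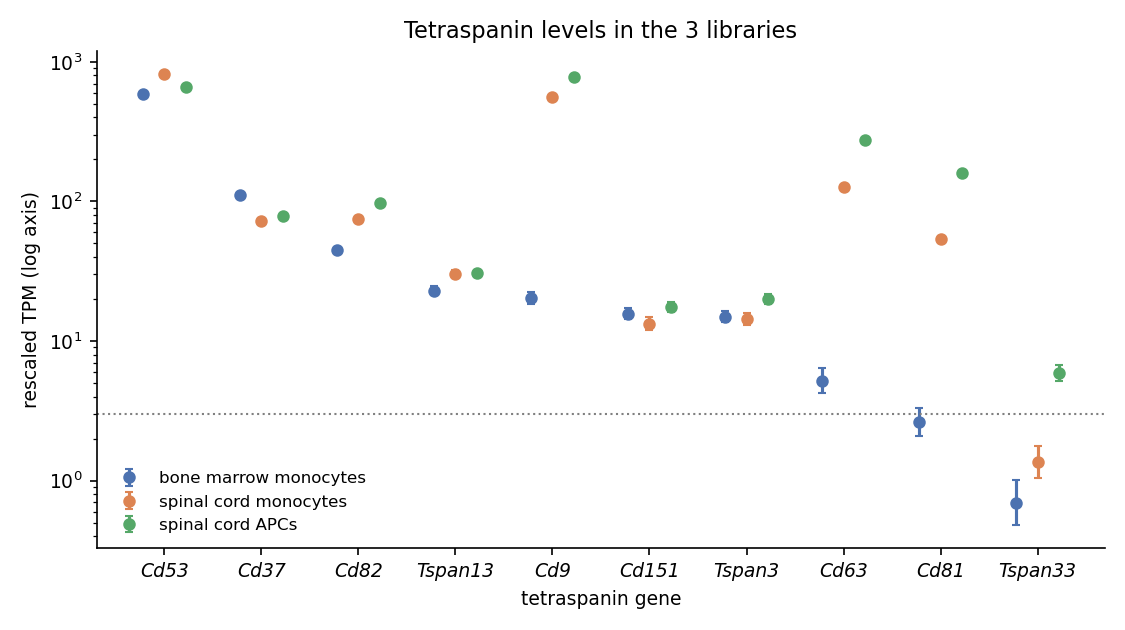
Rescaled TPM (log axis) of the 10 tetraspanin genes in the 3 libraries, 1 library per population; bars are 95% Wilson intervals of counting and the dotted line marks 3 TPM. Cd53 lies at 585 TPM or higher in every library, whereas Cd9, Cd63 and Cd81 lie far lower in BM monocytes than in both spinal cord libraries.

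To find which tetraspanins differed between monocytes of the bone marrow and those that had entered the spinal cord, estimated reads were scaled by size factors and compared as log2 fold changes. A gene was called higher or lower where the whole 98% interval of its fold change lay beyond 2-fold, provided that 1 or both libraries had over 3 TPM. This interval compares the libraries, not the conditions. SC against BM monocytes is called the first step, and APCs against SC monocytes the second. In bulk libraries, fewer cells of a type and less RNA per cell cannot be told apart. Of the 10 members, 9 were active in this comparison, and 3 of them (Cd9, Cd63 and Cd81) were called higher in SC monocytes and 0 lower. Among all 10072 active genes, 13.8% were called higher and 10.7% lower. The median log2 fold change of the 9 active members was 0.80, against -0.15 for all active genes (quartiles -0.65 and 0.45). Cd81 passed the TPM filter only through SC monocytes, where it was high.

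Cd9, Cd63 and Cd81 were each higher in SC than in BM monocytes by a factor far beyond their counting error. Cd9 (ENSMUSG00000030342.8, chr6:125460266-125494791, minus strand), which gathers integrins and immunoglobulin superfamily partners at the surface, had 404 reads in BM monocytes, 10214 in SC monocytes and 15895 in APCs. Its log2 fold change between the monocyte libraries was 5.14 (98% interval 4.97 to 5.31), or 35.3-fold. Cd63 (ENSMUSG00000025351.14, chr10:128900989-128912822, plus strand), the tetraspanin of late endosomes and exosomes, had 90, 1938 and 4603 reads in the same order of libraries. Its log2 fold change was 4.90 (4.55 to 5.28), or 29.9-fold. Cd81 (ENSMUSG00000037706.17, chr7:143052739-143067934, plus strand), a tetraspanin of the cell surface, had 70, 1295 and 4241 reads. In SC monocytes it was 25.6-fold higher, or 4.68 on the log2 scale (4.29 to 5.11). These 3 genes were low in BM monocytes, higher in SC monocytes and highest in APCs, and they ranked 313th, 333rd and 364th by log2 fold change among the active genes. Genes on the strand opposite to Cd9 carried few reads (Gm28809 had 8.7 in bone marrow and 100.6 in SC monocytes), and the strand setting of the counting is not given in the sources used here. The pseudogenes Cd9-ps and Cd63-ps had at most 2.6 estimated reads in the monocyte libraries and were not listed for APCs.

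The other 7 members were not called between the monocyte libraries. Cd82 (ENSMUSG00000027215.13, chr2:93419111-93463140, minus strand) had 1474 reads in BM monocytes, 2219 in SC monocytes and 3090 in APCs. Its log2 fold change of 1.07 (0.96 to 1.18) missed the call because the interval reached below 1. Cd53 (ENSMUSG00000040747.9, chr3:106759921-106790149, minus strand) had 18556, 23213 and 20592 reads, and its log2 fold change was 0.80 (0.77 to 0.84). Tspan13 (ENSMUSG00000020577.17, chr12:36014557-36042500, minus strand), with 806, 878 and 992 reads, was at 0.61 (0.44 to 0.77). All of these lay above 0 by counting error and short of the call. Cd37 (ENSMUSG00000030798.15, chr7:45233632-45239115, minus strand) was the only member with an interval below 0. It had 2629, 1563 and 1890 reads and a log2 fold change of -0.27 (-0.38 to -0.16). Tspan3 (ENSMUSG00000032324.11, chr9:56131725-56165477, minus strand) had 467, 399 and 611 reads and a log2 fold change of 0.26 (0.03 to 0.48). Cd151 (ENSMUSG00000025510.14, chr7:141467392-141471473, plus strand) had 472, 367 and 557 reads and a log2 fold change of 0.12 (-0.11 to 0.35). Both values were near 0, and their sign turned with the scale. As log2 ratios of TPM, which carry no factor other than length and total, Tspan3 was at -0.06 and Cd151 at -0.24, while Cd9 was at 4.78, Cd63 at 4.60 and Cd81 at 4.34. Scaling by the total of reads moved the median of all active genes by -0.18 in this comparison, and called 1239 genes higher and 1394 lower in place of 1386 and 1073, with Cd9, Cd63 and Cd81 still the members called. Tspan33 had 27 reads in BM monocytes and 53 in SC monocytes, was active in neither, and had a log2 fold change of 1.44 (0.67 to 2.25).

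**Figure D2:**
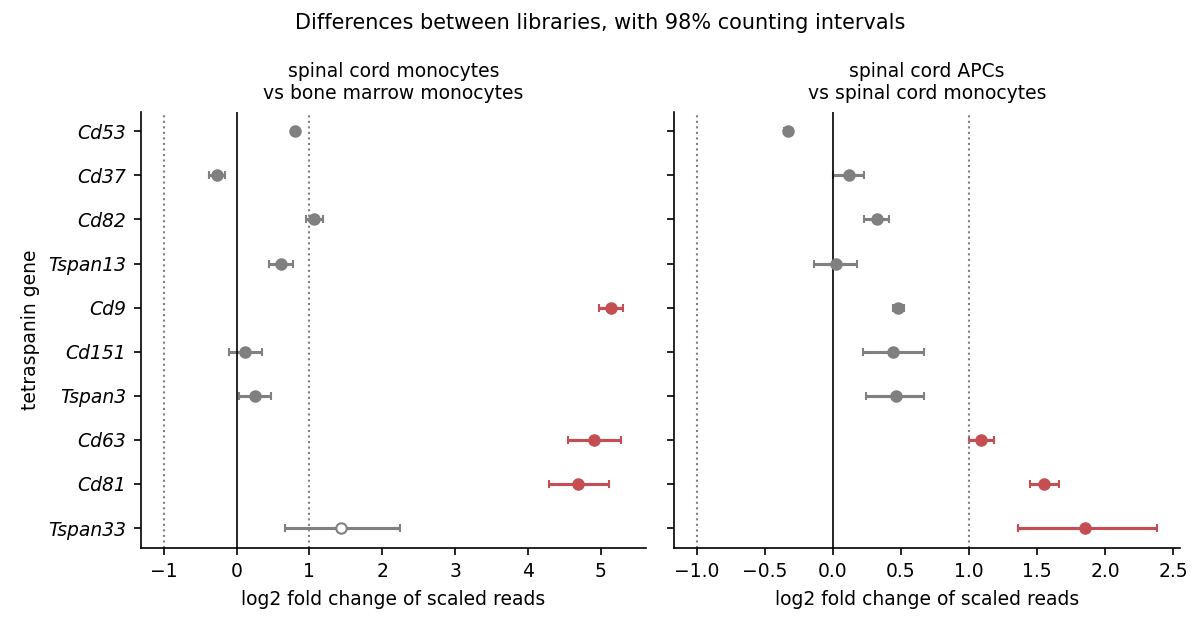
Log2 fold change of scaled reads for each tetraspanin gene between SC and BM monocytes (left) and between APCs and SC monocytes (right), on axes of different range; bars are 98% counting intervals, dotted lines mark 2-fold, red points are called and the open point is a gene under 3 TPM in both libraries. Cd9, Cd63 and Cd81 lie far beyond 2-fold on the left, and Cd63, Cd81 and Tspan33 lie beyond it on the right.

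Between APCs and SC monocytes, differences were smaller, and Cd63, Cd81 and Tspan33 were the members called. The transcript set behind the APC values differed from that of the monocyte libraries. In comparisons with APCs its part cannot be told apart from that of the population. With reads divided by effective length, the same 3 members were called. All 10 members were active, 3 were called higher in APCs and 0 lower, where 1.93% of the 9734 active genes were called higher and 1.7% lower. The median log2 fold change of the members was 0.45, against -0.04 for all active genes (quartiles -0.30 and 0.22). Cd81 rose 2.94-fold, a log2 fold change of 1.55 (1.45 to 1.66). Cd63 rose 2.13-fold, and its lower bound of 1.001 on the log2 scale was just past the threshold of 1. Tspan33 (ENSMUSG00000001763.14, chr6:29694222-29718559, plus strand) had 215 reads in APCs against 53 in SC monocytes, a log2 fold change of 1.85 (1.36 to 2.38). It passed the TPM filter only through APCs, where it stood at 5.92 TPM. Cd63 and Cd81 were thus called in both comparisons, which share the SC monocyte library and are not independent. Of all 1386 genes called higher at the first step, 68 were called higher at the second too. With a coefficient of variation of 0.2 between libraries assumed and added to the counting error, 0 of the 3 calls remained, and 84 genes in all were called higher in place of 188. Tspan33 was called in this comparison, and whether its 2 differences differ from each other was not tested.

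Cd9 and 6 further members were not called at this step. Cd9 had a log2 fold change of 0.48 (0.44 to 0.52), or 1.4-fold, so that most of its difference between BM monocytes and APCs lay at the first step. The log2 fold changes of Tspan3 and Cd151 in APCs against SC monocytes were 0.46 (0.24 to 0.67) and 0.44 (0.22 to 0.67), both with more reads in APCs than in either monocyte library. Cd82 was at 0.32 (0.23 to 0.41) and Cd37 at 0.12, with an interval that began just above 0. Tspan13 was at 0.02 (-0.14 to 0.18) and was the only member whose interval held 0. Cd53 was the only member with an interval below 0, at -0.33 (-0.36 to -0.30).

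The direct comparison of APCs with BM monocytes shares both libraries with the steps above and adds no independent support. In it 5 of 10 members were called higher and 0 lower, where 14.0% of 10190 active genes were called higher and 11.8% lower. Cd81 and Tspan33 passed the TPM filter only through APCs. Cd81 was 75.2-fold higher there, Cd63 63.6-fold, Cd9 49.2-fold and Tspan33 9.77-fold. Cd82, which was called at neither step alone, was called here at 2.63-fold, a log2 fold change of 1.39 (1.29 to 1.5). Of the 5 uncalled members, Cd53, Cd151, Tspan3 and Tspan13 had values of 0.48 to 0.71, and Cd37 had one of -0.15 (-0.25 to -0.05). The median was 1.05, against -0.17 for all active genes (quartiles -0.69 and 0.45).

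**Figure D3:**
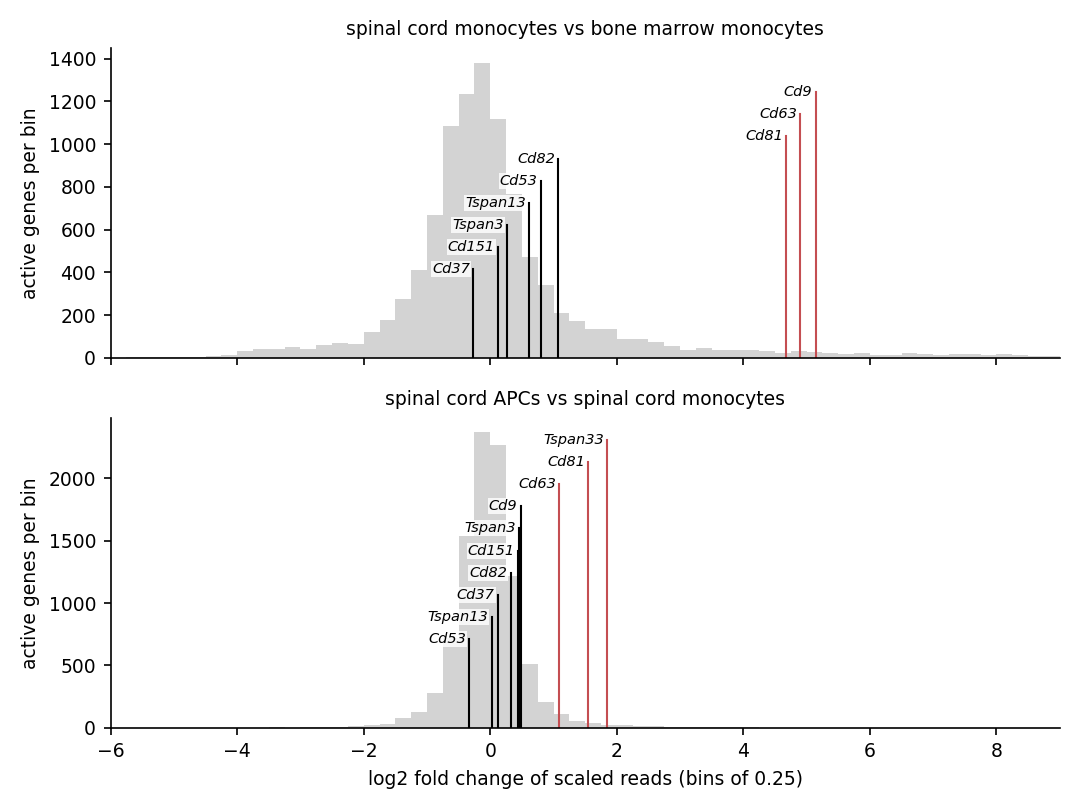
Distribution of log2 fold changes of all active genes (grey bars, genes per bin of 0.25) with the active tetraspanin genes as vertical lines, red where called; line height only separates the labels, and genes beyond the axis limits are not drawn. In the upper panel Cd9, Cd63 and Cd81 stand in the sparse right tail and the other 6 members stand in or beside the main body, and in the lower panel Cd63, Cd81 and Tspan33 stand to the right of it.

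Summed markers of microglia, T cells and endothelial cells were higher in both spinal cord libraries than in BM monocytes. Those of endothelial cells were lower in APCs than in SC monocytes, unlike Cd9, Cd63 and Cd81. The 9 microglia markers summed to 13.9 TPM in BM monocytes, 164 in SC monocytes and 434 in APCs. Over 3 TPM were 1, 8 and 9 of them. In SC monocytes against BM monocytes 8 of 8 active microglia markers were called higher, but all of them except P2ry12 passed the TPM filter only through SC monocytes, so that this count was nearly fixed by the filter. In APCs against SC monocytes 8 of 9 were called higher, of which Slc2a5 passed only through APCs. Among all active genes, 13.8% were called higher at the first step and 1.93% at the second, which holds beside each marker list here. Tmem119 stood at 1.82, 26.0 and 66.4 TPM in the 3 libraries, and Sall1 and Slc2a5 had 0 reads in BM monocytes. Microglia are known to express Cd9, Cd63 and Cd81, and a gate on high CD45 was meant to remove them. The paper could not exclude a few microglia among its APCs, and estimated an upper limit of their share from Tmem119. The summed microglia markers had the same order over the libraries as Cd9, Cd63 and Cd81. So did the 6 APC markers, which summed to 172.6, 5418 and 12840 TPM. T cell markers (6 genes) summed to 0.417, 48.3 and 73.0 TPM, with 5 called higher at the first step and 0 at the second. Endothelial markers (7 genes) summed to 17.7, 79.3 and 47.8 TPM, with 3 called higher at the first step and 0 at the second. Of those called, the T cell genes, Cldn5 and Esam likewise passed the filter only through SC monocytes. The part of these cells in the tetraspanin levels was not tested.

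The summed markers of B cells, platelets and neutrophils were not ordered like Cd9, Cd63 and Cd81, and 2 further lists took that order once their most abundant gene in BM monocytes was left out. B cell markers (5 genes) summed to 9.05, 4.51 and 85.1 TPM, and without Ebf1 to 8.69, 3.45 and 3.76 TPM. Pax5 had 0, 1 and 3 reads. Platelet markers (5 genes) summed to 33.9, 7.76 and 14.8 TPM and neutrophil markers (7 genes) to 1235, 166 and 349 TPM. Conventional dendritic cell markers (5 genes) summed to 40.8, 20.7 and 25.1 TPM, and without Flt3 to 2.99, 17.0 and 18.4 TPM. Of these markers, Batf3 and Clec9a were called higher and Flt3 lower at the first step, of 3 active, and Zbtb46 higher at the second, of 4 active. Each of those called higher passed the TPM filter only through the library in which it was higher. Of all active genes, 13.8% were called higher and 10.7% lower at the first step, and 1.93% higher at the second. Markers of oligodendrocytes, astrocytes and neurons (8 genes) summed to 75.2, 59.5 and 60.0 TPM, and without Mbp to 2.51, 23.7 and 26.2 TPM. The part of these cells in the tetraspanin levels was not tested either.

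The make-up of tetraspanin mRNA shifted from Cd53 toward Cd9, Cd63 and Cd81. The 31 tetraspanin genes summed to 1128 TPM in BM monocytes, 1986 in SC monocytes and 2331 in APCs. The 10 members held 73.0%, 88.9% and 91.1% of these sums. Cd53 alone held 51.9% in BM monocytes, 41.2% in SC monocytes and 28.4% in APCs. Its own level was not lower in the spinal cord, at 585, 817 and 662 TPM, so its share fell as the sum rose. Cd9, Cd63 and Cd81 together went the other way, with 2.51%, 37.4% and 52.0%. Cd9 accounted for most of this, with 1.81%, 28.3% and 33.4%. Among the leukocyte-restricted tetraspanins, Cd37 held 9.80%, 3.62% and 3.36%. The TPM of Cd53 was 28.6 times that of Cd9 in BM monocytes, 1.45 times in SC monocytes and 0.849 times in APCs. The TPM of Cd37 was 42.0 times that of Cd81, then 1.35 times, then 0.494 times. By contrast, the ratio of Cd63 to Cd81 stayed between 1.73 and 2.37 in the 3 libraries.

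**Figure D4:**
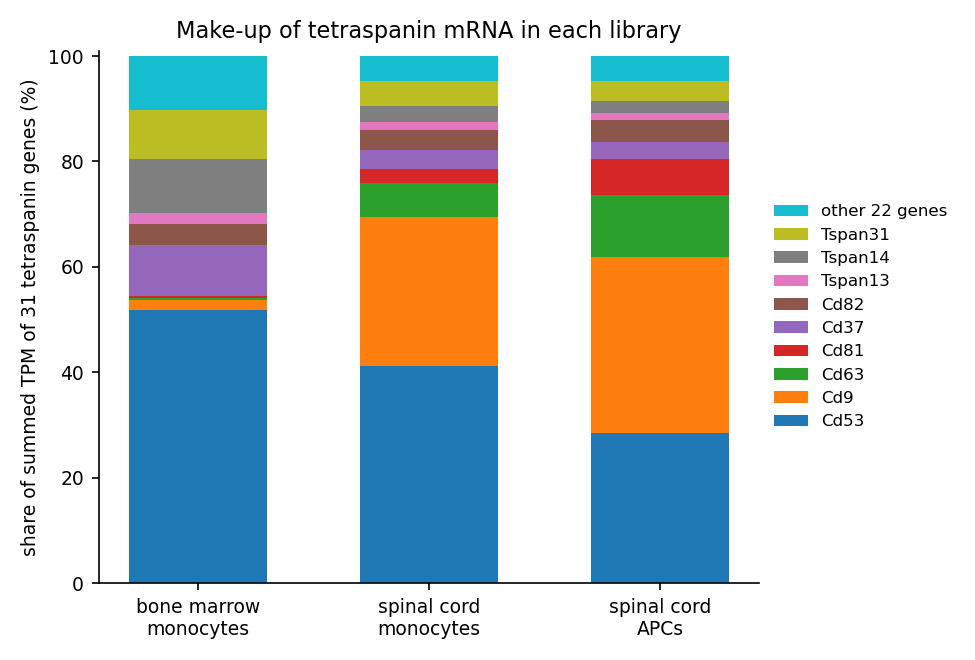
Share of the summed TPM of 31 tetraspanin genes (%, stacked to 100) in each library, 1 library per population, for the 9 genes named in the legend and the other 22 genes together. Cd53 narrows from 51.9% in BM monocytes to 28.4% in APCs while Cd9, Cd63 and Cd81 together widen from 2.51% to 52.0%.

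Of the other 21 tetraspanin genes, 8 were active in each comparison. At the first step 2 of them were called higher (Tspan4 and Tspan7) and 1 lower (Tspan32), beside 13.8% and 10.7% of all active genes. At the second 1 was called higher (Tspan7) and 0 lower, beside 1.93% and 1.7%. Tspan4 and Tspan7 passed the TPM filter at the first step only through SC monocytes. The median log2 fold changes of the active genes were -0.10 and -0.08. Tspan4, a tetraspanin of migrasomes, had 31, 330 and 445 reads in BM monocytes, SC monocytes and APCs, and rose 14.6-fold at the first step (log2 3.87, interval 3.28 to 4.53). Tspan7, best known from neurons, had 23, 116 and 414 reads and was called higher at each step, with log2 fold changes of 2.78 (2.07 to 3.59) and 1.67 (1.33 to 2.03). Tspan32, a tetraspanin of blood cells, had 872, 244 and 177 reads and fell at the first step by 1.35 on the log2 scale (-1.60 to -1.11). Tspan4 and Tspan7 followed the direction of Cd9 and Tspan32 the opposite one.

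Tspan33 belongs to the TspanC8 group, whose members bind ADAM10, a protease that sheds surface proteins, and carry it to the cell surface. On a list of 6 TspanC8 genes and Adam10, 0 of 4 active genes were called at the first step. Among all active genes, 13.8% were called higher there and 10.7% lower. Tspan33 was the only one of 5 called at the second step, beside 1.93% of all active genes called higher and 1.7% lower. Adam10 itself stood at 129, 102 and 103 TPM, with log2 fold changes of -0.01 (-0.06 to 0.03) and -0.17 (-0.23 to -0.12). Tspan14 was the most abundant TspanC8 gene, at 116, 59.6 and 50.05 TPM. Its log2 fold change at the first step was -0.65 (-0.73 to -0.57), short of the call. Tspan5 stood at 31.6, 13.8 and 11.6 TPM and was called lower in APCs against BM monocytes, with a log2 fold change of -1.23 (-1.39 to -1.06). Thus Tspan33 was the only gene of this group called higher in APCs, at a level of 5.92 TPM that remained under that of Tspan14. It passed the TPM filter only through APCs, and its call at the second step was lost with an assumed coefficient of variation of 0.2.

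Proteins that tetraspanins are known to bind were mixed. Of 13 such genes, 11 were active at each step. At the first step 3 were called higher (Cd36, Ptgfrn and Sdcbp) and 1 lower (Itga4), with a median log2 fold change of 0.30, where 13.8% of all active genes were called higher and 10.7% lower. At the second 1 was called higher (Dpp4) and 0 lower, with a median of 0.27, where 1.93% and 1.7% of all active genes were called. Cd36 passed the TPM filter at the first step only through SC monocytes, and Dpp4 at the second only through APCs. Ptgfrn and Igsf8 encode the immunoglobulin superfamily proteins that bind CD9 and CD81 most directly. Ptgfrn stood at 15.1, 37.8 and 47.1 TPM and rose at the first step (log2 1.66, interval 1.56 to 1.75). Igsf8 stood at 29.0, 50.4 and 80.8 TPM and was called only in APCs against BM monocytes, at 1.57 (1.45 to 1.68), since its interval at the first step (0.88 to 1.13) reached below the threshold. Both were thus ordered like their partners, with smaller differences. Sdcbp encodes syntenin, which links CD63 to exosome formation. It stood at 385, 1051 and 663 TPM, highest in SC monocytes. The pattern of syntenin therefore differed from that of Cd63. Cd36, a scavenger receptor that forms complexes with CD9, stood at 1.49, 11.7 and 31.5 TPM and rose at the first step by a log2 fold change of 3.09 (2.68 to 3.52). Itga4 encodes the integrin chain of VLA-4, through which monocytes bind inflamed vessels. It stood at 123, 43.0 and 34.7 TPM and fell at the first step by 1.24 on the log2 scale (-1.29 to -1.20). Itgb1, the common beta chain, stood at 138, 154 and 190 TPM and was not called.

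Because CD9 and CD81 restrain macrophage fusion, a list of 14 fusion genes was also read. At the first step 5 of 12 active genes were called higher (Ccl2, Cd200, Cdh1, Mmp9 and Trem2) and 0 lower, beside 13.8% and 10.7% of all active genes. Cd200, Cdh1 and Mmp9 passed the TPM filter there only through SC monocytes. At the second 2 of 13 were called higher (Cd200 and Dcstamp) and 1 lower (Ccl2), beside 1.93% and 1.7%, and Dcstamp passed the filter only through APCs. Dcstamp, which encodes a membrane protein required for fusion of osteoclasts and macrophages, had 0 reads in BM monocytes, 59 in SC monocytes and 490 in APCs, and rose at the second step by a log2 fold change of 2.88 (2.44 to 3.36). Its relative Ocstamp stayed under 3 TPM in each library, with 12, 68 and 86 reads. Cdh1, the adhesion molecule E-cadherin, stood at 0.460, 7.69 and 13.6 TPM, the same order as Cd9. Trem2, a receptor of macrophages and microglia, stood at 54.9, 160 and 215 TPM.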

How the data were processed

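RNA-Seq of 3 pooled libraries was used. The authors estimated expression on GENCODE vM22 transcripts (mm10) with Salmon 0.14.1, per the submitters' processing notes, and pooled transcripts per gene. They deposited TPM, normalized for effective length and library size, and estimated counts of reads, which are not normalized. For APCs 22242 genes were deposited and for each monocyte library 54432, so that transcript sets differed, and the set behind the APC values is not given in the sources used here. The 22238 common genes held 84.9% of deposited TPM in BM monocytes, 85.3% in SC monocytes and 100.0% in APCs, and TPM was rescaled over them.

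Estimated counts were rounded (32115707, 26116588 and 28209327 reads) and divided by median-of-ratios factors (1.205, 0.863 and 0.962). The log2 ratio of 2 libraries was taken as that of gamma variables whose shape is the read number plus 1, with percentiles 1 and 99 as bounds, after the GFold definition in the study's methods, recomputed over all genes. With 1 library per population the conditions could not be tested, and p-values are absent. The code was tested on simulated data. A level of 0 has a floor of 3 reads. The members and lists were chosen with earlier results of these data known. Another 2 genes were left out of the lists and are not reported here. All 10 members are named; of the other tetraspanins, those called in any comparison; of the partner, TspanC8 and fusion lists, genes called in any comparison could be named, and Adam10 always; and marker genes could be named beside a result. Tspan14, Itgb1 and Ocstamp were chosen after their values were seen. Alternatives were the scaling, the gene length, the TPM threshold, the reads added, the bounds, an assumed spread between libraries, the gene set and a plain 2-fold rule. Coordinates are from GENCODE M21 (GRCm38), which holds 99.0% of the common genes under an identical versioned identifier, and promoters are from RefSeq. Software was R 4.3.3 with edgeR 4.0.16 (TMM factors only) and Python 3.11.15 with scipy 1.17.1, numpy 2.4.6, matplotlib 3.10.9 and pandas 2.3.3.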

Additional observations from a re-analysis of the deposited data

How the results depend on the processing

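Cd9, Cd63 and Cd81 were called higher in SC than in BM monocytes under every alternative that gives a call. The alternatives on log2 of TPM plus a pseudocount give values and no call. Between APCs and SC monocytes, 3 members were called, and 0 with an assumed coefficient of variation between libraries of 0.2 and 0 with 0.4. Cd63 also lost its call there with wider bounds (percentile 0.1 and its counterpart), and Cd82 lost its call between APCs and BM monocytes with either assumed spread. A plain 2-fold rule added Cd82 at the first step. No member call turned its direction, and on log2 ratios of TPM the uncalled Cd151 and Tspan3 changed sign at the first step. At that step Cd151 was also below 0 with total reads (-0.06) and with all genes of the monocyte libraries (-0.13). Both intervals held 0, and Tspan3 stayed above 0 in these settings. The log2 fold change of Cd9 at that step ranged from 4.71 to 5.14. Among all genes, the called higher and lower at the first step were 1386 and 1073, against 1239 and 1394 with total reads, 1371 and 1587 with all genes of the monocyte libraries, 2623 and 1178 without a TPM threshold, 906 and 449 with a spread of 0.2 and 598 and 203 with 0.4. At the second step 188 and 165 became 233 and 320 with reads divided by effective length, 385 and 292 without a threshold, 326 and 302 with the plain rule, 84 and 34 with a spread of 0.2 and 37 and 13 with 0.4. For APCs against BM monocytes 1426 and 1199 became 1312 and 1448 with total reads, 2870 and 1333 without a threshold, 972 and 494 with 0.2 and 689 and 202 with 0.4. The assumed spreads widen the interval by construction, and the cause of the other shifts was not tested. TPM as deposited was 84.9% (BM) and 85.3% (SC) of rescaled TPM in the monocyte libraries. No paired analysis was possible because each population has 1 library. Depth limited Tspan33 most, with 27 and 53 reads in the monocyte libraries.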

Other observations

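The genes closest to Cd9, Cd63 and Cd81 in their pair of log2 fold changes (first and second step, Euclidean distance over 10307 genes active in any of 3 libraries) were all far less abundant than these tetraspanins. Closest to Cd9 were G530012D18Rik (distance 0.046), Car2 (0.142), a carbonic anhydrase, and Gimap6 (0.146), a GTPase of immune cells, which stood at 6.24, 4.27 and 9.73 TPM in APCs, with 0 reads of G530012D18Rik in BM monocytes. Closest to Cd63 were Nuak1 (0.127) and Stk39 (0.167), both kinases, and Kcnk4 (0.158), a potassium channel, at 7.93, 3.05 and 13.1 TPM in APCs. Closest to Cd81 were Rasgrp3 (0.174), an activator of Ras proteins, Cd247 (0.28), a chain of the T cell receptor complex, and Lrrc3 (0.295), at 9.18, 5.87 and 8.73 TPM in APCs. Only 3 libraries underlie each distance. Counting error was not carried into the distances, so the order among these genes was not tested. The first fold change of G530012D18Rik rests on the read added to its 0 reads in BM monocytes.

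Some tetraspanin genes are close neighbors on the chromosomes and had unequal fold changes. Tspan32 and Cd81 are 33.1 kb apart on chromosome 7 with 0 protein-coding genes between them, and Tspan32 was lower and Cd81 higher in SC than in BM monocytes. Cd151 and Tspan4 are 3.77 kb apart on the same chromosome with 1 protein-coding gene between them, and Tspan4 was called higher while Cd151 was not called. Tspan18 lies 84.6 kb from Cd82 with 0 protein-coding genes between them, and had 10, 19 and 19 reads in BM monocytes, SC monocytes and APCs.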
